A study of Mus musculus with 57 samples.

Results

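Gata3 and 4 transcription factors that work beside it in T helper 2 (Th2) cells, Gfi1, Rbpj, Nfil3 and Pparg, were followed through 56 single mouse Th2 cells. The 5 genes, which the deposited table writes as gata3, gfi1, rbpj, nfil3 and pparg, were taken from a list of named regulators, with earlier results of these data known, and all 5 were among the 10565 genes of the table. The cells were CD4+ T cells from the spleens of wild type C57BL/6 mice aged 8 weeks, activated with anti-CD3 and anti-CD28 and cultured for 5 days with IL-4 and anti-IFNγ, with IL-2 added after 2 days. They were then restimulated with anti-CD3 and anti-CD28, and single cells were isolated with the microfluidic Fluidigm C1 system. All cells belong to 1 group, and the sample titles number them within 5 sets, T1 (8 cells) and T2 to T5 (12 cells each). The labels do not say what a set stands for. The labels do not say whether the cells came from more than 1 animal or culture, and the 56 cells were treated as a single sample. Cells were therefore not tested against each other, and every correlation below describes these cells and carries no p-value.

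Gata3 is a zinc finger protein that binds GATA sequences, and it is known as the master regulator of the Th2 fate because it opens and activates the locus of the cytokine genes Il4, Il5 and Il13. Gfi1 is a zinc finger repressor that supports the growth of Th2 cells, Rbpj is the DNA-binding effector of Notch signalling, and Notch is known to act on Gata3 and Il4. Nfil3, also called E4BP4, is a basic leucine zipper factor known for control of cytokine genes and of the circadian clock. Pparg is a nuclear receptor for lipid ligands that pairs with Rxr proteins and is known to be needed for full Th2 effector function.

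The promoters of the 3 cytokine genes of the Th2 locus are printed because Gata3 is known to act there, and the sections on cytokines refer back to them. Each is the 250 bases before a start site in RefSeq (build GRCm38.p6), 5′ to 3′ on the gene's own strand, with matches on either strand to GATA words in capitals. The words were AGATAA with its variant AGATAG, and TGATAA with its variant TGATAG. Il4 has a pair of annotated start sites, and both are given.
Il5, chr11:53720544-53720793, plus strand: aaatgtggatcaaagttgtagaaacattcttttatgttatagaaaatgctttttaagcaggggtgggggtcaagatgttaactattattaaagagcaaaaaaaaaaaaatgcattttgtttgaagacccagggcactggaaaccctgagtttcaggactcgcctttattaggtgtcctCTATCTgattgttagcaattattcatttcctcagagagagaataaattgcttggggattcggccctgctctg
Il13, chr11:53634703-53634952, minus strand: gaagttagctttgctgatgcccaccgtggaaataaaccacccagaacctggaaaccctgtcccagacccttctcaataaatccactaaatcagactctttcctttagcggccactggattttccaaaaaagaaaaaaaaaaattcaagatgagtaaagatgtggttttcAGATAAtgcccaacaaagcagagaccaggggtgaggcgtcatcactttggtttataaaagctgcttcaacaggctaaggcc
Il4, outer start, chr11:53618666-53618915, minus strand: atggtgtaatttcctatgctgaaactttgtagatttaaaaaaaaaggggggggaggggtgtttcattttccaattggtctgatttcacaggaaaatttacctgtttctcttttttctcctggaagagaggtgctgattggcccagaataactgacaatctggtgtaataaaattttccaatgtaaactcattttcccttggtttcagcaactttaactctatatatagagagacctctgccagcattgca
Il4, inner start, chr11:53617339-53617588, minus strand: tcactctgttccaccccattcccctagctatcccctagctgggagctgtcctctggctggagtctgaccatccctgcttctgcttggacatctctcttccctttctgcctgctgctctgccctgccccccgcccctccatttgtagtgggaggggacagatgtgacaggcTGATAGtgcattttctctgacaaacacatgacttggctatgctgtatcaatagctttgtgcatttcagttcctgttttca
Il5 held 1 match, CTATCT, the reverse complement of AGATAG, at bases -72 to -67 before the start. Il13 held AGATAA at -81 to -76. Of the Il4 windows, the outer one held no match and the inner one held TGATAG at -80 to -75. Of all 32851 promoter windows of this length in RefSeq, 26.5% held at least 1 of these words, and of the 9512 that belong to genes of the table, 16.8% did. None of the 9 windows of Gata3, Gfi1, Rbpj, Nfil3 and Pparg held one. The Rbpj word GTGGGAA, searched on both strands, was found in 1 of the 13 windows, against 5.42% of all promoters. That window was 1 of the 3 of Pparg, with TTCCCAC at -114 to -108. The Nfil3 words TTACGTAA and TTATGTAA, held by 0.931% of all promoters, were in none of the 13 windows. A match is a run of letters and does not show that a protein binds there.

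Levels are TPM, transcript abundance scaled to the same total in each cell, a unit that accounts for gene length. How reads were shared among near-identical gene copies is not given, so levels of different genes are compared with that limit. Of the glycolysis genes, for example, Gapdh had a mean of 29.2 TPM and Aldoa one of 1966. The reason for such differences was not tested. The authors had rounded the TPM to whole numbers, and 1 TPM was the lowest level taken as detection. TPM keeps no sequencing depth. A value of 0 can be a transcript lost in capture or amplification, so a gene is described as listed at 0 and not as absent. Genes detected per cell ranged from 2679 (T4_3) to 8396 (T3_5), with a median of 4743.5, and 0 pairs of cells held identical values. Cell T3_2 stood apart from the rest, with a median Spearman rho of 0.268 with the other cells, against 0.436 for the next lowest cell. All 8 T cell markers examined were in the table, with a summed level of 265 to 12107 TPM per cell. Of markers of other cells the table held Cd74 (32 cells), Cpa3 (5 cells), Alas2 (2 cells), Cd8b1 (1 cell) and Gata1 (1 cell). It held none of the 6 myeloid markers looked for, so their levels are not known here. No doublet caller was run.

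Gata3 was the most abundant of the 5 factors and was detected in 56 of 56 cells (100%, exact Clopper-Pearson 95% interval 93.6 to 100). Its mean was 904 TPM (SD 514 over cells), which placed it 161st by mean among the 10565 genes. The lowest cell held 55 TPM (T3_2), the median was 818 and the highest cell held 2178 (T5_4). The middle of the cells lay between quartiles of 440.5 and 1231 TPM, and 55 of 56 cells held 100 TPM or more. Only T3_2, the cell that stood apart, lay under that level. An annotated gene on the opposite strand, 4930412O13Rik, overlaps Gata3 in GENCODE M21. Its mean was 3.77 TPM, or 0.417% of that of Gata3, and it reached 19.9% of Gata3 in 1 cell. No source used here says whether the library kit keeps strand, so reads of the pair cannot be told apart.

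Rbpj was also detected in all 56 cells, at a far lower level and with a wider spread for its mean than Gata3 (SD/mean 0.703 against 0.569). Its mean was 74.6 TPM (SD 52.5), with 2 TPM in the lowest cell (T3_2), 65 in the median cell and 196 in the highest (T5_5 and T5_12). In 52 cells it was at 10 TPM or more. The annotation holds 3 Rbpj pseudogenes (Rbpj-ps1, Rbpj-ps2 and Rbpj-ps3), and how reads were shared among such copies is not given, so the level of Rbpj is uncertain to that extent.

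Pparg had a mean of 87.4 TPM (SD 189), close to that of Rbpj, but from a minority of high cells. It was detected in 29 of 56 cells (51.8%, 38 to 65.3), and in 11 cells it was at 100 TPM or more. The lowest cells were listed at 0, the median cell held 1 TPM and the highest held 942 (T4_4). The 3 highest cells carried 44.9% of all Pparg TPM. Where Pparg was detected its mean was 169 TPM.

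Gfi1 was detected in 23 of 56 cells (41.1%, 28.1 to 55) at a mean of 35.1 TPM (SD 89.5). The median cell was listed at 0 and the highest held 343 TPM (T2_11). Most of its detected cells were low: 13 held under 10 TPM and 10 held at least that. Among detected cells the median was 7 TPM, and the 3 highest cells carried 49.4% of the total.

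Nfil3 was found in the fewest cells, 13 of 56 (23.2%, 13 to 36.4), at a mean of 19.5 TPM (SD 80.6). The median cell was listed at 0, and the highest, T3_6, held 583 TPM, or 53.4% of the Nfil3 of all cells. The next highest cells held 118 (T2_9) and 105 TPM (T3_12). T3_6 was also the 1 cell in which Nfil3 exceeded Gata3, which stood there at 371 TPM.

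**Figure D1:**
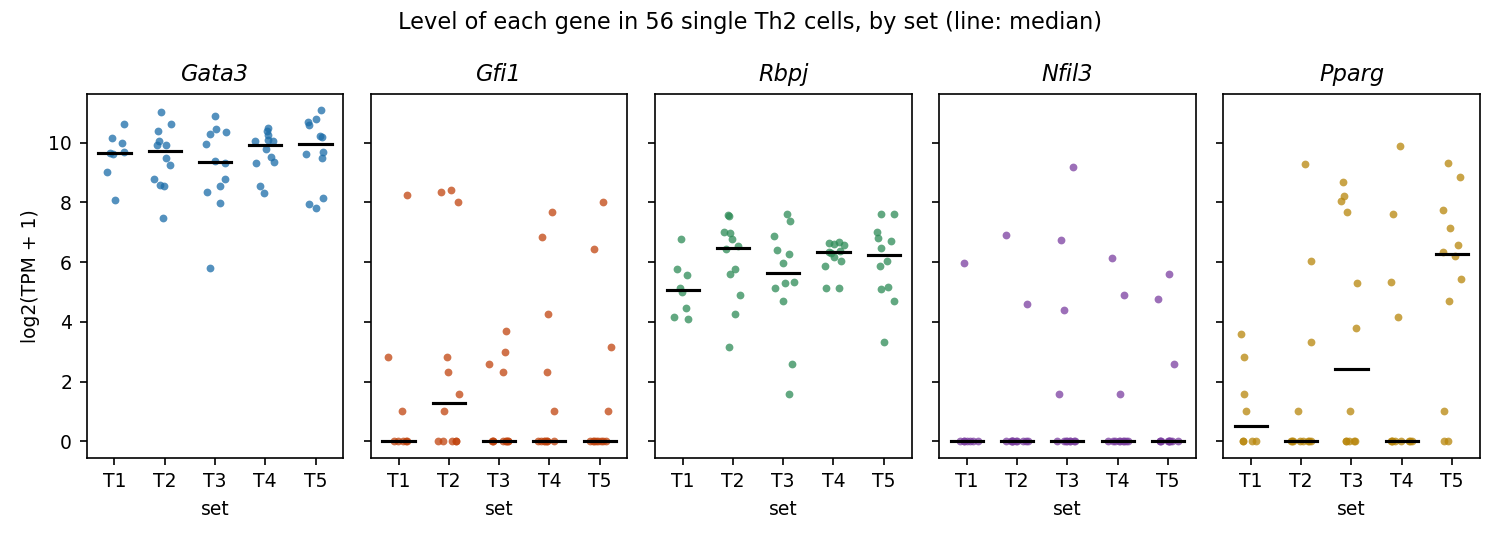
Level of each factor in each of the 56 cells as log2(TPM + 1), with cells placed by set (T1 to T5) and a line at the median of each set. Gata3 and Rbpj form a single band above 0 in every set, whereas most cells of Gfi1 and Nfil3 lie at 0 and Pparg is divided between 0 and high values.

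The sets differed little in Gata3. Its set medians were 807, 841.5, 659, 969 and 997.5 TPM from T1 to T5, and the ranges of all sets overlapped. The sets accounted for 3.53% of the variance of log2(TPM + 1) of Gata3, 4.69% for Gfi1, 8.97% for Rbpj and 2.42% for Nfil3, against a median of 6.18% over all genes. Pparg stood higher, at 18.7%. It was detected in 4 of 8 cells of T1, in 4 of 12 in T2, 7 of 12 in T3, 4 of 12 in T4 and 10 of 12 in T5. Its highest cell in T1 held 11 TPM, while each of the other sets had a cell of at least 412 TPM. What separates the sets is unknown, and it was not tested whether they are batches. The median of Rbpj was lowest in T1 (32.5 TPM) and highest in T2 (88.5).

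Among 39 lineage factors of T cells in the table, of 42 listed, the 5 genes spread over most of the range of mean TPM. Gata3 was second, below Id2 (3630 TPM), an inhibitor of E proteins, and above Batf (588), an AP-1 factor. Pparg (87.4) lay between Xbp1 (90.5), a factor of the secretory pathway, and Satb1 (76.7), a chromatin organiser. Rbpj (74.6) followed Satb1 and preceded Id3 (65.4). Gfi1 (35.1) lay between Runx1 (38.6) and Foxo1 (34.5), and Nfil3 (19.5) between the aryl hydrocarbon receptor Ahr (20.1) and Nfatc2 (18.5). Apart from the steps from Id2 to Gata3 and from Gata3 to Batf, each of these differences was small against the SD over cells of the genes concerned. The step from Gata3 to Batf was also below the SD of either gene, 514 and 775 TPM. Id2, Gata3 and Rbpj were the 3 of the 39 factors detected in every cell.

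The spread of each factor was set against genes of like level. Spread was measured as CV2, that is (SD/mean) squared, and the excess of a gene was its log2 CV2 less the median log2 CV2 of the gene and its 100 neighbours in mean TPM. Rbpj was far more even than its neighbours, with an excess of -2.52, and all 100 neighbouring genes were more variable. Those neighbours were detected in a median of 41.5 cells, and 3 of the 100 were in all 56 cells. Gata3 lay close to the running median, at -0.27, with 34 neighbours less variable and 66 more variable. Pparg was at 0.77 (83 of 100 neighbours less variable) and Gfi1 at 0.49 (71 of 100). Nfil3 was at 1.10 (93 of 100). The value of Nfil3 rested on T3_6: without the highest cell of each gene it was -0.09. Of the 7871 genes detected in at least 10 cells, 13.1% had an excess above 1 and 15.1% an excess below -1, so that either call is common. The value of Rbpj lies well inside the lower class, and those of Gata3, Gfi1 and Pparg lie in neither.

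**Figure D2:**
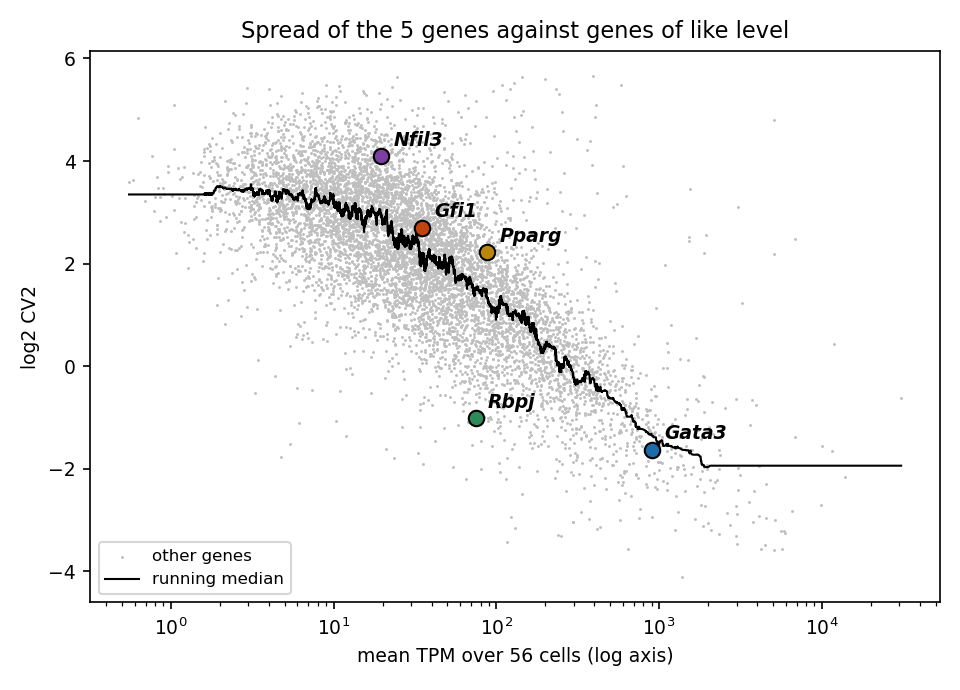
Spread against level for 7871 genes, each found in 10 cells or more: mean TPM on a log axis, log2 CV2 on the vertical axis, grey points for genes and a black line for the running median. Of the 5 factors, Rbpj lies furthest below the line (excess -2.52), Gata3 is close to it, and Gfi1, Pparg and Nfil3 above it.

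Since Gata3 and Rbpj were in every cell, the combinations differed by Gfi1, Nfil3 and Pparg. Pparg alone of these 3 was the most frequent state, in 15 cells, and 12 cells had none of the 3. Gfi1 alone was in 8 cells, Gfi1 with Pparg in 8, Nfil3 alone in 4, Gfi1 with Nfil3 in 3 and Nfil3 with Pparg in 2. Counting all 5 genes, 12 cells held 2 of them, 27 held 3, 13 held 4 and 4 held all 5. The 4 cells with all 5 were T1_6, T3_5, T3_11 and T4_4, with 6983, 8396, 6212 and 4317 genes detected, so that 3 of them lay above the median of 4743.5. Whether the number of genes detected played a part was not tested.

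These numbers lay close to the product of the single shares of the 3 genes, which is given as a description and not as a test. That product gives 13.1 cells with Pparg alone, 12.2 with none, 9.15 with Gfi1 and Pparg, 8.51 with Gfi1 alone and 2.76 with all 3. Gfi1 and Pparg shared 12 cells against a product of 11.9, Gfi1 and Nfil3 7 against 5.34, and Nfil3 and Pparg 6 against 6.73. At 10 TPM or more, 23 cells had none of the 3, 9 cells had 2 of them and 0 cells had all 3. Nfil3 and Pparg then shared 1 cell, T3_5, against a product of 3.93, and Gfi1 and Pparg shared 6 against 3.93. These are counts of a few cells each.

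Within single cells Gata3 nearly always exceeded its partners. It was the highest of the 5 genes in 52 of 56 cells, and the ratio of Gata3 to Rbpj TPM ran from 2.54 to 171, with a median of 12.9. Rbpj and Gfi1 exceeded Gata3 in 0 cells. Pparg exceeded it in 3 cells, T4_4 (942 against 648 TPM), T5_2 (635 against 221) and T5_6 (459 against 283). In T5_2 and T5_6 Gata3 was low for the series, and in T4_4 it was nearer its median.

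The levels of the 5 factors were only weakly related to each other, as were those of most genes to each factor. Over the 10 pairs Spearman's rho ran from -0.08 (Nfil3 and Pparg) to 0.27 (Gata3 and Rbpj), with a median of 0.05, and 0 pairs reached 0.3 in size, the value used throughout to call a correlation. Of all genes, 1.03% (Gata3) to 3.74% (Gfi1) were at 0.3 or more with a factor. At -0.3 or less were 0.216% (Gfi1) to 2.31% (Gata3). A count of 0 of 10 pairs is near those shares. Gfi1, Nfil3 and Pparg were listed at 0 in 33, 43 and 27 cells, so their ranks hold many ties. For Gata3 and Rbpj, Pearson's r of log2(TPM + 1) was 0.42, but 0.26 without cell T3_2, in which both genes were at their lowest. Taken set by set, from T1 to T5, its rho was -0.76, 0.28, 0.62, -0.26 and 0.31, above 0 in 3 sets of 5. With T1 left out the rho over the remaining cells was 0.35, with T4 left out 0.32 and with T3 left out 0.15. Rbpj and Nfil3 (0.15) were at 0.36 without T3. Gata3 had a rho of -0.02 with Gfi1, -0.02 with Nfil3 and -0.04 with Pparg.

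How far Gata3 followed the cytokines was described for 11 cytokine genes of Th2 cells. None of the 11 reached a rho of 0.3 in size with Gata3, 5 were above 0 and 6 below, and the median was -0.03, equal to the median over all genes (-0.03). Over all 7870 other genes, 1.03% had a rho of 0.3 or more with Gata3 and 2.31% one of -0.3 or less. Of the cytokines of the Th2 locus, Il4 had a rho of 0.18, Il5, the eosinophil growth factor, one of -0.03, and Il13, which acts on epithelium, one of -0.05. Il4 was detected in 54 cells, but Il13 in 31, Il31 in 24, Il5 in 14, and Il6 and Il9 in 13 each. Many ranks of these 5 are tied at 0, so their values rest on fewer cells. The value of Il4 was above that of 93.3% of all genes, and that of Il5 above 48.6%. Il4, Il5 and Il13 share a chromosome region and the GATA words shown above were found in a window of each, for Il4 in the inner window only. Such words were in 26.5% of all promoter windows and in 16.8% of those of genes in the table.

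Il4 was above 0 with Gata3 in all 5 sets, from 0.17 (T1 and T5) to 0.23 (T2 and T4), and was the only 1 of the 11 for which the 5 sets had the same sign. The anti-inflammatory cytokine Il10 had the highest rho with Gata3, 0.20, but from -0.40 in T1 to 0.64 in T5. Areg, a ligand of the epidermal growth factor receptor, was at 0.19, the itch cytokine Il31 at 0.09 and Il24 at 0.08. The growth factors Csf2 and Il3, which lie beside each other, had the lowest values, -0.25 and -0.22, and Il6 and Il9 were at -0.08 and -0.07. A call at 0.3 in size appeared with some sets left out: Il10 at 0.34 without T3, Il3 at -0.32 without T4, and Csf2 at -0.32 and Areg at 0.30 without T5. With the number of genes detected per cell held constant, Il10 was at 0.29, Il4 at 0.25, Areg at 0.24 and Csf2 at -0.23. In that setting 0 of the 11 reached 0.3 in size. The score of all 11 cytokines, the mean of their z-scored log2(TPM + 1), had a rho of -0.05 with Gata3.

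**Figure D3:**
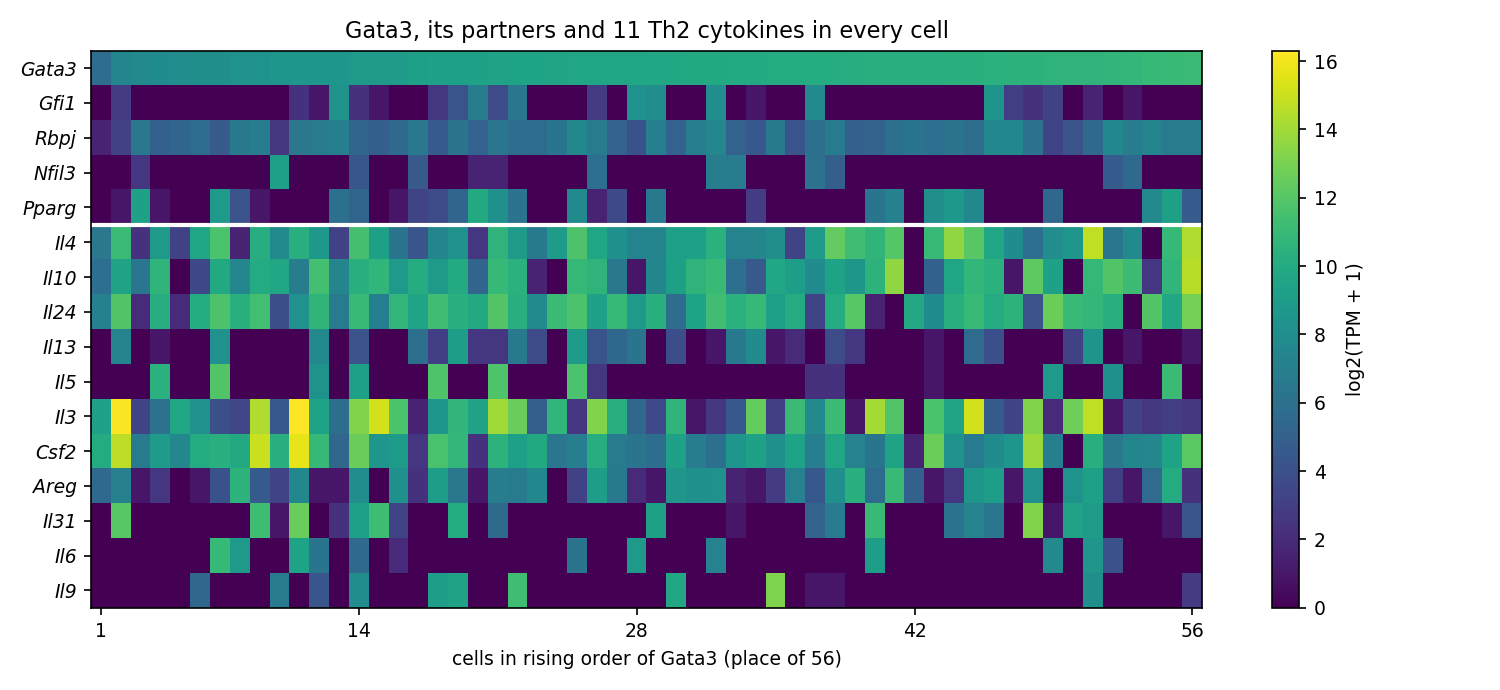
Every cell in rising order of Gata3 (horizontal axis), with log2(TPM + 1) of the 5 factors above the white line and of 11 Th2 cytokines below it as colour. High cytokine values are found from the low to the high end of Gata3, and the cells with Gfi1, Nfil3 or Pparg are scattered along it.

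Cells at both ends of the Gata3 range show this. T5_4, the highest at 2178 TPM, held 21171 TPM of Il4 and 23652 of Il10, but 0 of Il5 and 1 of Il13. T2_5, at 2088, held 1904 TPM of Il4 and 2178 of Il5. T3_3, at 1918, was listed at 0 for Il4, Il5 and Il13 and held 3938 TPM of Il24. At the low end, T2_10 had 175 TPM of Gata3 with 2170 of Il4, 159 of Il13 and 75448 of Il3. T5_2 had 221 TPM of Gata3 with 4 of Il4. T5_11 had 245 TPM of Gata3 with 441 of Il4 and 1390 of Il5. T3_2, the lowest in Gata3, held 89 TPM of Il4. Among these cells Il4 ran from 0 to 21171 TPM at high Gata3 and from 4 to 2170 TPM at low Gata3. The highest Il4 values of all cells were in T2_6 (26918 TPM), T5_4 and T3_4 (12196). Gata3 stood there at 1573, 2178 and 1300 TPM, above its median of 818.

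The 4 partners gave few calls with the same cytokines. Rbpj had a rho of -0.35 with Il3 and 0.31 with Il10, while Gfi1, Nfil3 and Pparg had 0 calls. Over all genes, 1.74% had a rho of 0.3 or more with Rbpj and 0.826% one of -0.3 or less. With ranks centred by set the value for Il10 was 0.21. Within sets Il3 ran from -0.67 in T2 to 0.26 in T1, and it was at -0.17 without T2 and -0.29 without T5. The value for Il10 was under 0.3 without T1 (0.20), T2 or T5 (0.28). Pparg came close with Il5 (0.29), with a Pearson's r of 0.31 but 0.19 with ranks centred by set. Gfi1 had a rho of 0.26 with Il31 and a Pearson's r of 0.15. For Nfil3, a factor known to act on Il10 and Il13, the values were 0.19 with Il10, 0.06 with Il13 and 0.21 with Il5. Of all genes, 2.30% had a rho of 0.3 or more with Pparg and 0.445% one of -0.3 or less. For Gfi1 the shares were 3.74% and 0.216%, and for Nfil3 3.62% and 0.292%.

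**Figure D4:**
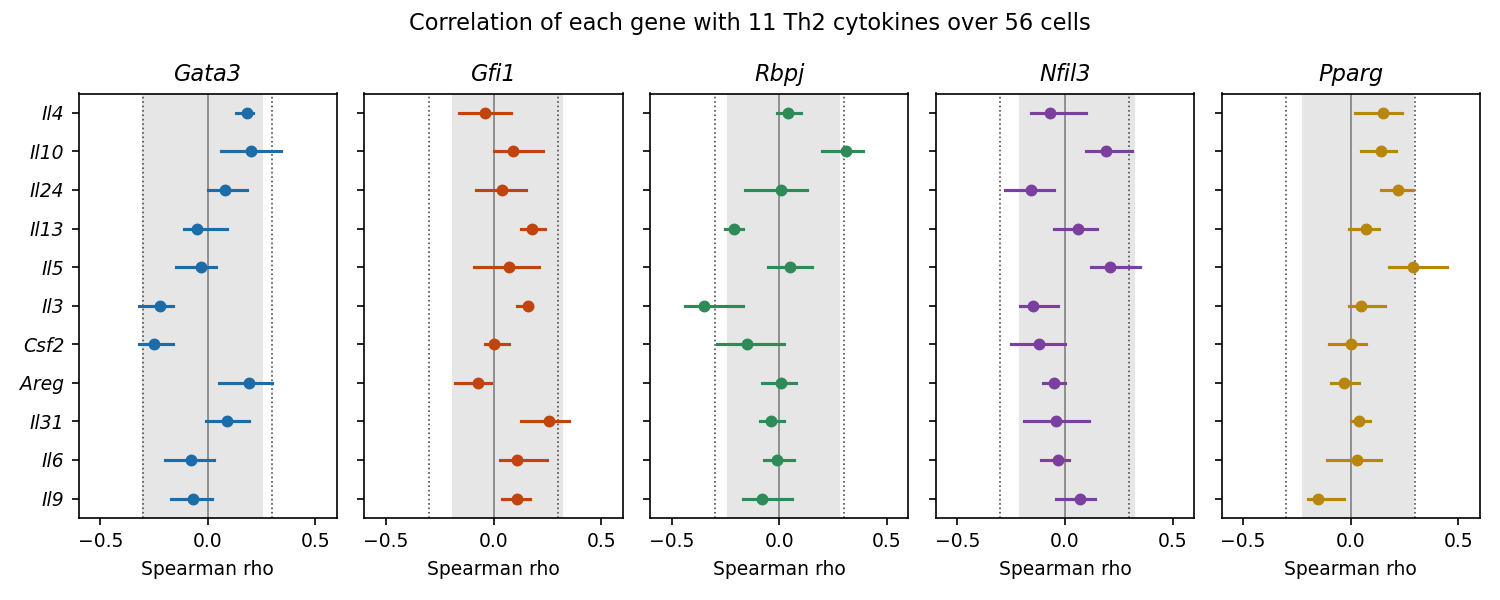
Spearman's rho of each factor (panels) with 11 Th2 cytokines (rows) over 56 cells as points, with a line from the lowest to the highest value when each set is left out in turn. The grey band holds 95% of all genes and the dotted lines mark a rho of 0.3 in size; of the points, Rbpj with Il3 and Rbpj with Il10 lie beyond these lines.

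Genes whose level was most like that of Gata3 were sought among the 4312 others detected in at least 28 cells. The highest values belonged to the interferon-inducible gene Ifi27l2a (rho 0.51), Il2ra (0.48), the alpha chain of the IL-2 receptor, Cd247 (0.46), the zeta chain of the T cell receptor complex, Hsbp1 (0.46) and the RNA-binding protein Hnrnpc (0.45). All 5 were above 0 with Gata3 in every set, Il2ra with a value of 0.05 in T1. Ifi27l2a has close relatives in the genome, so its level is uncertain to the extent that reads were shared. The lowest values belonged to Topbp1 (-0.51), a protein of DNA replication and repair, the ubiquitin ligase component Fbxo11 (-0.49), the spindle protein Haus6 (-0.47), the enzyme Cth (-0.46) and the growth factor Pdgfb (-0.44). Topbp1 has an annotated pseudogene. They are the extremes of 4312 ranked genes.

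**Figure D5:**
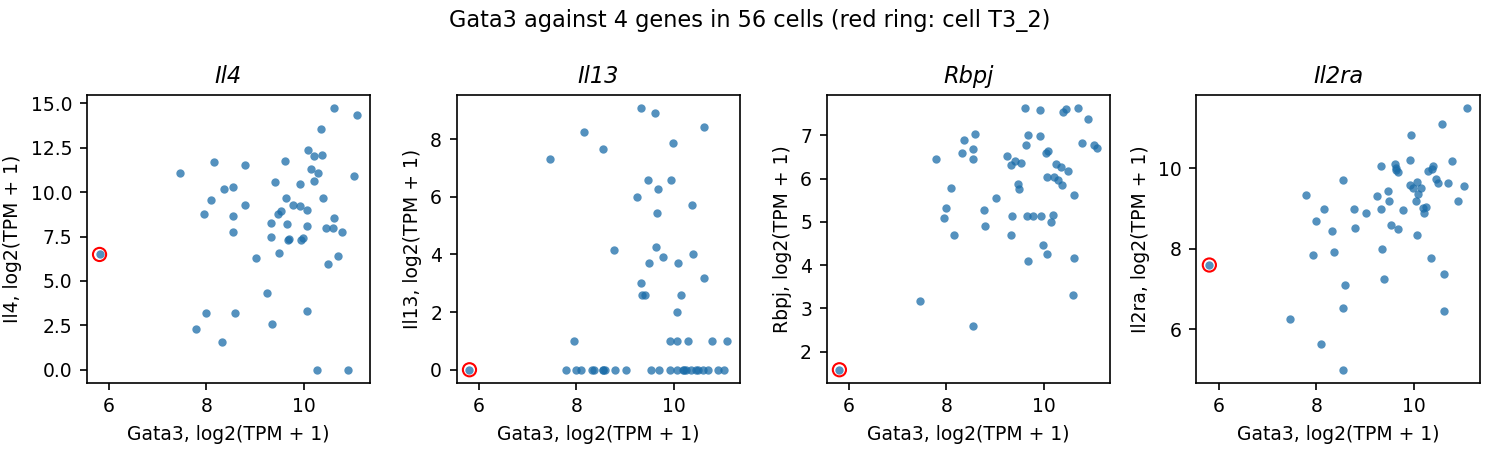
Log2(TPM + 1) of Gata3 (horizontal axis) against Il4, Il13, Rbpj and Il2ra in each of the 56 cells, with a red ring on cell T3_2. The rho with Gata3 is 0.18 for Il4, -0.05 for Il13, 0.27 for Rbpj and 0.48 for Il2ra. Il2ra was among the 5 genes with the highest rho with Gata3, so that it exceeds the others follows from its choice.

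The network of factors known to act with or under Gata3 was listed as 25 genes, of which 18 entered, and 2 had a rho of 0.3 or more (1.03% over all genes). These were Id2 (0.42) and Irf4 (0.35; 0.28 without T2), a factor needed for Th2 cytokine expression. The median of the list was -0.01, against -0.03 for all genes. Batf (-0.05), Ets1 (-0.02) and Mina (-0.05), the next most abundant of the list, had values near 0, and Stat6, the transducer of the IL-4 signal that induces Gata3, was at -0.12. Of 11 surface and secreted Th2 genes, called receptors here although Ecm1 is secreted, all 11 were above 0 with Gata3. The median of the 11 was 0.20, against -0.03 for all genes, and 1 reached 0.3, Il2ra. The common gamma chain Il2rg was at 0.02, Ecm1 at 0.17 and the chemokine receptor Ccr8 at 0.21.

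Of the 8 T cell markers, 7 had a rho above 0 with Gata3 and 7 with Rbpj. The median of the 8 was 0.20 with Gata3, against -0.03 for all genes, and 0.20 with Rbpj, against 0.01. Gata3 had a rho of 0.33 with the score of the 8 T cell markers, 0.29 without cell T3_2, 0.20 without set T2, just under 0.3 without T3, and from -0.26 in T1 to 0.67 in T2 within sets. The genes at 0.3 or more were Cd2 (0.44), Cd3d (0.38) and Cd3g (0.30), 3 of 8 against 1.03% of all genes. The number was 2 without cell T3_2 (Cd3g at 0.27), 2 without T2 and 1 without T3. Rbpj had a rho of 0.36 with the same score, above 0 in all 5 sets, with Cd28 (0.37) and Cd3d (0.34) called, 2 of 8 against 1.74% of all genes, and 0 of 8 without T2. Whether the T cell marker level played a part in other values of Gata3 and Rbpj was not tested. Gata3 had a rho of -0.12 with the number of genes detected per cell and Rbpj one of -0.01. With the G1/S score of the cell cycle Gata3 was at -0.23, and 3 of its 19 genes were above 0. The median of the 19 was -0.14, against -0.03 for all genes. Of the 19, 1 was at -0.3 or less, Slbp (-0.38), which binds histone messenger RNA, against 2.31% of all genes, and by Pearson's r it was at -0.23.

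Rbpj was most like Sat1 (rho 0.53), an enzyme of polyamine breakdown, the inhibitory receptor Ctla4 (0.49), Zdhhc4 (0.47), Secisbp2l (0.46) and h2_t23 (0.44), a nonclassical MHC class I gene written as in the table and one of a family of close copies. Its lowest values were with Ifi27l1 (-0.44), Cyb5b (-0.42), Prep (-0.41), Mgat2 (-0.40) and Dennd2d (-0.39). Of the Notch pathway, 31 genes were listed, 19 entered and 0 reached 0.3 with Rbpj in either direction. With Rbpj, 1.74% of all genes were at 0.3 or more and 0.826% at -0.3 or less. A count of 0 of 19 is near those shares. The median of the 19 was 0.04, against 0.01 for all genes. The most abundant of the 19 were the coregulator Snw1 (rho 0.07), the protease Adam10 (0.01), and the gamma-secretase subunits Psenen (0.06) and Ncstn (0.00). The receptors Notch1 and Notch2 were at 0.04 and 0.09.

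Of the 11 Th2 receptors, 4 reached 0.3 with Rbpj, Il4ra (0.34), the IL-4 receptor chain, Ccr8 (0.34), Il2ra (0.33) and the leukotriene receptor Cysltr1 (0.32), against 1.74% of all genes. Without T2 the number was 2, with Il4ra at 0.28, Il2ra at 0.29 and Cysltr1 at 0.16. Ccr8 was at 0.29 without T5 and Il4ra at 0.25 without T3. Of 34 lineage factors, 4 did so, Prdm1 (0.51), the repressor also called Blimp-1, Id2 (0.44), Maf (0.39), an activator of Il4, and Satb1 (0.32). Without T2 Maf was at 0.29 and Satb1 at 0.25. Prdm1 was detected in 12 cells, so its value rests on few of them.

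Gfi1 was most like Pdcl3 (rho 0.52), Taf10 (0.47), a subunit of the general transcription machinery, and Aldh18a1 (0.45), an enzyme of proline synthesis. The lowest values were with the proteasome subunit Psmb10 (-0.38), the ribosomal protein Rplp1 (-0.33), which has an annotated pseudogene, and Gnb2l1 (-0.33). Of the 10 corepressors and partners listed for Gfi1, 7 entered and 0 reached 0.3, near the 3.74% of all genes. Their median was 0.16, against 0.06 for all genes. Kdm1a, the histone demethylase that Gfi1 recruits, was at 0.21, Hdac2 at 0.16, Zbtb17 at 0.13 and Hdac3 at 0.12. Gfi1 had a rho of 0.27 with the number of genes detected, the highest of the 5 factors. With that number held constant, Kdm1a was at 0.13. Of the 11 receptors, 1 was called, Il4ra (0.34), against 3.74% of all genes; it was at 0.29 with the number of genes detected held constant and 0.24 without T3. Of the 34 lineage factors, 1 was called, the AP-1 factor Fosl2 (-0.36), against 0.216% of all genes at -0.3 or less, and by Pearson's r it was at -0.29.

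Pparg was most like Bcap29 (rho 0.55) and Arl6ip1 (0.54), both proteins of the endoplasmic reticulum, and Nsmce4a (0.51), of the SMC5/6 complex. Its lowest values were with Rab3gap1 (-0.43), Uso1 (-0.39) and Rcc2 (-0.38). Of 25 partners and target genes listed for Pparg, 16 entered and 0 reached 0.3, near the 2.30% of all genes. Their median was 0.06, against 0.03 for all genes. The most abundant of the 16 were the mitochondrial carrier Ucp2 (0.20), the fatty acid binding protein Fabp5 (0.15), the Mediator subunit Med1 (0.05) and the coactivator Ncoa3 (0.07). Its partner Rxra was at -0.03. Genes of G2/M gave more calls: 4 of 23 were at 0.3 or more, namely Cdk1 (0.49), Cenpf (0.40), Cdca8 (0.33) and Tpx2 (0.31), against 2.30% of all genes. With ranks centred by set Cdca8 was at 0.20 and Tpx2 at 0.21. The number was 2 without T4 and 10 without T2. The G2/M score had a rho of 0.26 with Pparg, and from -0.20 in T2 to 0.45 in T3 within sets.

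Nfil3 was most like Aimp1 (rho 0.47), Fam48a (0.46) and Myeov2 (0.45), and least like Ate1 (-0.41), Efha2 (-0.38) and Ralgds (-0.37). Of 15 clock genes and related factors, 5 entered, and the period gene Per1, detected in 14 cells, was called at 0.35 (Pearson's r 0.22), 1 of 5 against 3.62% of all genes. Bhlhe40, a clock-linked repressor and the most abundant of the list, was at -0.01, Csnk1e at 0.12, Cry1 at 0.07 and Clock at 0.21. Of the lineage factors, Id3 (0.39), Bcl11b (0.34) and Prdm1 (0.33) were called, 3 of 34 against the same 3.62%. The number was 1 without T2, with Bcl11b at 0.24 and Prdm1 at 0.22, and without T3 Id3 was at 0.29. With 43 of the 56 cells listed at 0, the ranks of Nfil3 rest on 13 cells.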

How the data were processed

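Single Th2 cells were profiled by RNA sequencing, 1 library per cell; the pooled library of 10000 cells was left out, since it is a single library of another kind. The values the authors deposited are named a score here, because they are TPM rounded to whole numbers: every value is whole and the columns sum to 999202 to 999914. Per the submitters' processing notes, reads were processed with FastQC, Cufflinks and Bowtie 0.12.2 and build mm9; no source used here gives the role of each tool. The depth of each cell is therefore unknown, no counting error could be given for a level, and the intervals on shares of cells cover counting error only. Of all values, 55.4% were 0.

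Symbols were compared with RefSeq GRCm38.p6, a later build used for names and for its own promoter windows: 9501 were current, 949 older and 115 not matched. Correlations were Spearman's rho over 56 cells, called at 0.3 in size, with Pearson's r of log2(TPM + 1) as an alternative, and genes entered when detected (1 TPM) in at least 10 cells. The members and gene lists were chosen with earlier results of these data known. Named genes were the members, the 11 cytokines, the 5 highest and 5 lowest rho for Gata3 and Rbpj (3 and 3 for the others) among genes in at least 28 cells, called genes of the pathway lists and the 4 with the highest mean, and neighbouring lineage factors. Alternatives changed the detection threshold, filter, running median, pseudocount and scaling, centred ranks by set, held the number of genes detected constant (partial rho), or left out a set or cell. The statistics were tested on simulated levels in which no transcripts were lost and the planted correlation was strong. That test does not show how they behave with many values of 0 or with weak correlations. Python 3.11.15, numpy 2.4.6, pandas 2.3.3, scipy 1.17.1 and matplotlib 3.10.9 were used.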

Additional observations from a re-analysis of the deposited data

How the results depend on the processing

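No paired analysis was possible because all cells are 1 group and no test was run. Depth is unknown, so whether a 0 is a lost transcript cannot be told; detection shares therefore depend on the threshold. Gfi1 was in 26.8% of cells at 5 TPM and 17.9% at 10 TPM, and Rbpj in 92.9% at 10 TPM. Cells with none of Gfi1, Nfil3 and Pparg numbered 20 at 5 TPM and 23 at 10 TPM, and cells with at least 2 of the 3 numbered 9 at 10 TPM, against 17 at 1 TPM. The excess variation of Nfil3 changed sign, to -0.09, without the highest cell of each gene, and that of Pparg ran from 0.73 to 1.22 with each set left out in turn, passing 1 without T1, T3 or T5. Without T3, Nfil3 was detected in too few cells to enter. Between members, 1 pair, Gata3 and Rbpj, was called with Pearson's r at each pseudocount (1, 0.1 and 10), and 0 to 1 pairs with a set left out. Between Gata3 and the cytokines, 0 to 2 were called with a set left out. The rho of Gata3 with the T cell score was 0.29 without cell T3_2 and 0.20 to 0.38 with a set left out.

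Counts over all genes also moved. With a set left out fewer cells remain, and the numbers at 0.3 or more and at -0.3 or less ran from 119 to 161 and 206 to 322 for Gata3, 254 to 545 and 25 to 115 for Gfi1, 156 to 278 and 72 to 175 for Rbpj, 288 to 454 and 43 to 83 for Nfil3, and 207 to 337 and 57 to 114 for Pparg. With Pearson's r, 305 genes were at 0.3 or more with Gata3 (81 by rho) and 309 with Rbpj (137 by rho). As a partial rho, the numbers were 128 for Gata3 and 138 for Gfi1 at 0.3 or more, and 84 for Gfi1, 56 for Nfil3 and 60 for Pparg at -0.3 or less. At -0.3 or less, Gfi1 had 30 with ranks centred by set and 27 without T3_2, and Nfil3 had 36 without T3_2 and 48 without T3_5. Nfil3 had 177 at 0.3 or more among genes detected in at least 20 cells. The cause of these shifts was not tested. Of the Th2 receptors, 3 were called with Gata3 by Pearson's r, 2 as a partial rho, 2 without T3_5 and 2 to 3 with T1, T2, T3, T4 or T5 left out; these list alternatives, and Pearson's r without T3_2, were chosen after the data had been seen.

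Of the 38 genes named as most or least like a member, 34 kept a value of 0.3 or more in size with Pearson's r, and 36 to 38 did so under the other alternatives run. Those that did not in at least 1 alternative were Gnb2l1, Psmb10 and Rplp1 with Gfi1, Mgat2 and Prep with Rbpj, and Rcc2 with Pparg.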

Other observations

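The factors were also set against lists of activation, glycolysis and ribosomal protein genes. Of 23 activation genes, which mark recent stimulation of T cells, Gata3 was called with 3: Il2ra (rho 0.48), the costimulatory receptor Icos (0.37) and, with the opposite sign, the cytokine Lta (-0.37; Pearson's r -0.29). That is 2 of 23 at 0.3 or more, against 1.03% of all genes, and 1 of 23 at -0.3 or less, against 2.31%. The score of the list had a rho of 0.01 with Gata3. Rbpj was called with 4 of the same genes, Ctla4 (0.49), Il2ra (0.33), Tnfrsf18 (0.32) and Lta (-0.31), against 1.74% of all genes at 0.3 or more and 0.826% at -0.3 or less. Of these, Ctla4 alone was called without T2 and without T5. Without cell T3_2 the calls were Ctla4 and, at -0.34, Lta. Nfil3 was called with Tnfrsf18 (0.41) and Tnfsf8 (-0.31), against 3.62% and 0.292% of all genes, and Tnfsf8 was at -0.26 without T3. Gfi1 was called with 1 of the 23, Egr2 (0.31; 0.14 without T2), against 3.74% of all genes, and Pparg with 0.

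Of 15 glycolysis genes, 1 was called with Gata3, Pkm2 (0.37), the pyruvate kinase of growing cells, against 1.03% of all genes, and it was at 0.29 without T3. Gfi1 was also called with 1 of 15, the glucose transporter Slc2a1 (0.32; 0.23 without T2), against 3.74%, and the other factors with 0. Of 73 ribosomal protein genes, 8 were at 0.3 or more with Rbpj, 11% against 1.74% of all genes, among them Rps15a (0.39) and Rps19 (0.39). The number was 6 without T3_2, 4 without T2, 12 without T5 and 36 by Pearson's r. For the other factors the share was 1.37% with Gata3 (1.03% of all genes), 2.74% with Gfi1 (3.74%), 5.48% with Nfil3 (3.62%) and 2.74% with Pparg (2.30%). These numbers moved as well: Gata3 had 31 of the 73 by Pearson's r. Nfil3 had 12 without T2 and 11 without T5, but 1 without T3 and 1 without T4. By Pearson's r the ribosomal protein score had 0.41 with Gata3 and 0.43 with Rbpj, whereas rho was 0.06 and 0.19. Without cell T3_2 the rho was 0.00 and 0.14.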
